A study of Mus musculus with 48 samples.

Results

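The 10 genes described here are 5 transcription factors of the primitive endoderm (Gata6, Gata4, Sox17, Sox7 and Hnf4a), the receptor Pdgfra, the endocytic adaptor Dab2 and 3 basement membrane genes (Col4a1, Col4a2 and Lama1). They were chosen by symbol, through the Ensembl gene identifiers of the deposited tables, and all 10 were found among the 54752 genes of each of the 3 tables. Nascent RNA of mouse embryonic stem cells (ESCs) in L2i medium was labelled with 4-thiouridine (4SU), a uridine analogue that newly made RNA takes up, and was sequenced in 48 libraries that form 24 groups of 2. FOXD3-iKO cells, in which 4-hydroxytamoxifen (4HT) was given to induce loss of the transcription factor FOXD3, were compared with the same line given the solvent ethanol (EtOH). Cycling FOXD3-iKO cells were taken 8, 14, 24 and 32 h after 4HT or EtOH. FOXD3-iKO cells held by a double thymidine block, which stops cells at the start of DNA synthesis, were taken 0, 1, 2, 3, 4 and 5 h after release, and the release came 24 h after 4HT or EtOH. Cycling OCT4-tetOff cells, in which OCT4 (gene symbol Pou5f1) is lost upon DOX, were taken 16 and 24 h after DOX or water (H2O). The label lasted 30 min in cycling and 15 min in synchronized cells. The labels do not describe the alleles or the number of clones. They also do not say if paired libraries of a group stem from different cultures, so p-values reflect only how far these libraries spread.

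The primitive endoderm is the extraembryonic layer that forms beside the epiblast in the late blastocyst and later gives the visceral and parietal endoderm of the yolk sacs. GATA6 is its earliest known determinant and is held in check by NANOG in the epiblast lineage, while FGF signalling favours it. GATA4, SOX17 and SOX7 follow, HNF4A acts in the visceral endoderm, PDGFRA marks the precursors, and DAB2 helps to place and polarize the layer. The layer secretes a basement membrane of type IV collagen, whose main chains are encoded by Col4a1 and Col4a2, and of laminin, whose alpha 1 chain is encoded by Lama1. ESCs derive from the epiblast and can give rise to cells of this kind when pluripotency factors are lost or GATA factors are supplied.

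The libraries held 21827951 to 30406124 counts in cycling FOXD3-iKO cells, 21113158 to 26112435 in OCT4-tetOff cells and 7953841 to 17936504 in synchronized cells. Values are CPM, counts scaled to a common library total, after TMM scaling, which sets each library by its typical gene. In CPM, 3 counts correspond to 0.101 to 0.142 CPM, 0.103 to 0.165 CPM and 0.157 to 0.386 CPM in those tables. Foxd3 spanned 1.43 to 4.84 CPM in cycling 4HT cells and 5.05 to 9.99 CPM in cycling EtOH cells, with no overlap. It spanned 1.17 to 2.19 CPM in synchronized 4HT cells and 3.89 to 8.23 CPM in synchronized EtOH cells. Pou5f1 spanned 46.2 to 79.6 CPM in DOX cells and 176 to 226 CPM in H2O cells, also with no overlap. The 8 embryonic stem cell markers summed to 1211 to 1789 CPM in DOX cells, 3070 to 3525 CPM in H2O cells and at least 2472 CPM in every FOXD3-iKO library. Sox2 had 0 counts in every library, although it is a defining ESC gene. Its interval lies wholly inside that of Sox2ot on the same strand, which had 1005 to 4543 counts, so the count of Sox2 says nothing of its transcription. Of the 11 fibroblast or feeder markers, 5 were at or under 3 counts throughout in each table, Fap, Postn, Dcn and Lum among them.

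In cycling EtOH cells 9 of the 10 genes were measurable, and Sox7 was not. In H2O cells Sox17 too was under 3 counts in each library, and in synchronized cells it did not pass the filter on low counts. Levels of different genes were compared as CPM per kb of gene interval, since reads from introns count too. In the 8 cycling EtOH libraries Lama1 was highest, with a mean of 0.846 CPM per kb and a range of 0.587 to 1.09 CPM per kb. Col4a1 followed with 0.287 CPM per kb and a range of 0.267 to 0.309 CPM per kb, and overlapped with neither neighbour. Col4a2 (mean 0.183 CPM per kb), Gata6 (0.162 CPM per kb), Dab2 (0.135 CPM per kb), Hnf4a (0.111 CPM per kb), Sox17 (0.105 CPM per kb) and Gata4 (0.0925 CPM per kb) came next in that order, and each overlapped with the next. Pdgfra was below all of these at 0.048 CPM per kb, with a highest library of 0.0584 CPM per kb against a lowest of 0.0704 CPM per kb for Gata4. In the 4 H2O libraries of OCT4-tetOff cells Lama1 was again highest (with 1.08 to 1.43 CPM per kb), followed by Col4a1 (0.161 CPM per kb) and Hnf4a (0.147 CPM per kb), which overlapped, and Gata4 (0.0141 CPM per kb) was lowest of the genes above 3 counts. In the 12 synchronized EtOH libraries Col4a1 (0.576 CPM per kb), Lama1 (0.513 CPM per kb) and Hnf4a (0.502 CPM per kb) led, and their ranges overlapped.

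The solvent-treated lines differed in most of these genes before either factor was lost. At 24 h OCT4-tetOff H2O cells had 1.12 and 1.30 CPM of Gata6, against 4.51 and 4.69 CPM in FOXD3-iKO EtOH cells. They had 1.18 and 1.22 CPM of Gata4, against 7.29 and 8.31 CPM in EtOH cells. Lama1 went the other way, with 147 and 179 CPM in H2O cells and 73.6 and 76.6 CPM in EtOH cells. None of these groups overlapped. Gata6 and Gata4 stood apart by far more than the gap between the 2 libraries of a group, and Lama1 by more than that gap. In a joint fit of the 24 h libraries (edgeR's quasi-likelihood test, p adjusted over all genes, called under 0.05), 7 of 8 tested genes other than Sox17 were called, where 32.5% of all 18437 genes were called (13.9% higher and 18.6% lower in H2O cells). Gata4, Gata6, Dab2, Col4a1 and Col4a2 were lower in H2O cells, by log2 differences of -2.68, -1.89, -0.78, -0.77 and -0.75. Lama1 (1.14) and Hnf4a (0.48) were higher in H2O cells, and Pdgfra was not called (-0.19, adjusted p = 0.59). Sox17 had 1 and 2 counts in H2O cells, against 26 and 18 counts in EtOH cells, and passed the filter only through FOXD3-iKO libraries, so it is given without a test. Hnf4a was no longer called without EtOH replicate 1, EtOH replicate 2 or H2O replicate 1 (edgeR adjusted p = 0.05, 0.11 and 0.087). Cell line, solvent and table changed together here and cannot be told apart.

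Among the genes above 3 counts in H2O cells, Gata6 and the paired collagen genes had the highest fold changes after loss of OCT4 at both times. Sox17 passed the filter on low counts only through its DOX libraries and is left out of these counts. After 24 h of DOX 6 of the other 8 tested genes were higher and 1, Lama1, was lower, so 7 were called where 36.9% of all 17713 genes were (18.1% higher and 18.7% lower). After 16 h 5 were higher and Lama1 was lower, so 6 were called where 16.9% of all genes were (7.94% higher and 8.91% lower). The median log2 fold change of the 8 genes was 1.43 at 24 h and 0.84 at 16 h, where the medians of all genes were -0.01 and -0.00.

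Gata6 had 10.2 and 11.2 CPM in DOX cells at 16 h, against 1.70 and 2.14 CPM in H2O cells. At 24 h it had 20.7 and 21.1 CPM in DOX cells, against 1.12 and 1.30 CPM in H2O cells. Every DOX library was thus far above every H2O library, and the later DOX libraries were the highest of this line. The log2 fold change was 2.48 ± 0.16 (SE, 2 libraries each) at 16 h and 4.10 ± 0.16 at 24 h, which is 5.6-fold and 17.1-fold (edgeR adjusted p = 1.5e-05 and 6e-07). The difference of the 16 and 24 h responses was 1.61 ± 0.25 and did not pass the test (edgeR adjusted p = 0.11).

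Sox17, a SOX factor of the endoderm, was close to the limit of counting. Its 4 DOX libraries held 12 and 8 counts at 16 h and 13 and 12 counts at 24 h, against 2 and 1 counts in H2O cells at 16 h and 1 and 2 counts in H2O cells at 24 h. The groups did not overlap, but the H2O libraries were all under 3 counts, and the gene passed the filter on low counts only through its DOX libraries. The summed counts gave a ratio of DOX over H2O of 5.14 at 16 h, with an exact 95% interval of 1.52 to 27, and of 6.92 at 24 h, with an interval of 2.11 to 35.8, for counting error only. No p-value is given, since the gene had to differ to pass the filter. Gata4 had 0.937 and 1.58 CPM in DOX cells at 16 h, against 0.77 and 0.923 CPM in H2O cells. At 24 h Gata4 had 1.37 and 2.32 CPM in DOX cells, against 1.18 and 1.22 CPM in H2O cells. The DOX libraries were higher at both times, but the lower of them lay close to the H2O libraries, and Gata4 was not called (log2 0.56 and 0.61, edgeR adjusted p = 0.39 and 0.17). Without DOX replicate 1 of 24 h, the 24 h value was 0.97 (edgeR adjusted p = 0.029). Sox7, a close relative of Sox17, had 0 or 1 count in each DOX library and 0 to 2 counts in each H2O library, so no change was detectable at this depth.

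Hnf4a, a nuclear receptor, had 13.8 and 14.0 CPM in DOX cells at 16 h, against 7.37 and 8.99 CPM in H2O cells. At 24 h it had 16.5 and 17.4 CPM in DOX cells, against 10.7 and 11.8 CPM in H2O cells. The DOX libraries were higher each time, and its log2 fold change of 0.76 ± 0.13 at 16 h and 0.59 ± 0.12 at 24 h was modest beside that of Gata6 (edgeR adjusted p = 0.0035 and 0.0052). An antisense gene, Hnf4aos, overlaps 34913 bases of Hnf4a, and no source used here gives the strand setting of the counting, so reads of the pair may not be told apart.

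Pdgfra, the receptor for PDGF-A, had 2.35 and 3.28 CPM in DOX cells at 16 h, against 1.94 and 2.09 CPM in H2O cells, and did not pass the test then (log2 0.48, edgeR adjusted p = 0.26). At 24 h it had 4.21 and 5.86 CPM in DOX cells, against 2.06 and 2.37 CPM in H2O cells. The later groups were well apart, and the log2 fold change was 1.18 ± 0.23 (edgeR adjusted p = 0.0037). Dab2 had 13.1 and 13.3 CPM in DOX cells at 16 h, against 6.93 and 7.09 CPM in H2O cells. At 24 h Dab2 had 26.7 and 31.7 CPM in DOX cells, against 8.74 and 9.48 CPM in H2O cells. It rose by log2 0.91 ± 0.13 at 16 h and 1.68 ± 0.12 at 24 h (edgeR adjusted p = 0.0011 and 1e-05).

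The matrix genes split. Col4a1 had 82.0 and 82.2 CPM in DOX cells at 16 h, against 17.3 and 19.5 CPM in H2O cells, and 96.6 and 106.9 CPM in DOX cells at 24 h, against 16.2 and 20.8 CPM in H2O cells. Col4a2 had 59.04 and 61.7 CPM in DOX cells at 16 h, against 13.1 and 15.7 CPM in H2O cells, and 75.8 and 93.9 CPM in DOX cells at 24 h, against 13.9 and 15.9 CPM in H2O cells. The log2 fold changes at 16 and 24 h were 2.16 ± 0.13 and 2.46 ± 0.13 for Col4a1 and 2.06 ± 0.14 and 2.51 ± 0.14 for Col4a2, with the highest edgeR adjusted p of the 4 at 1.8e-05. Lama1 had 80.4 and 81.6 CPM in DOX cells at 16 h, against 135.2 and 138.6 CPM in H2O cells, and 81.9 and 98.7 CPM in DOX cells at 24 h, against 147 and 179 CPM in H2O cells. It was lower in each DOX library, by log2 -0.76 ± 0.13 at 16 h and -0.85 ± 0.13 at 24 h (edgeR adjusted p = 0.0033 and 0.00089). None of the 9 tested responses, Sox17 included, was called as different between 24 and 16 h, as was none of all genes (0%); 3 had an unadjusted p under 0.05, and DESeq2 called 1. In bulk RNA, a change in the number of cells that transcribe a gene and a change in the RNA made per cell cannot be told apart.

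**Figure D1:**
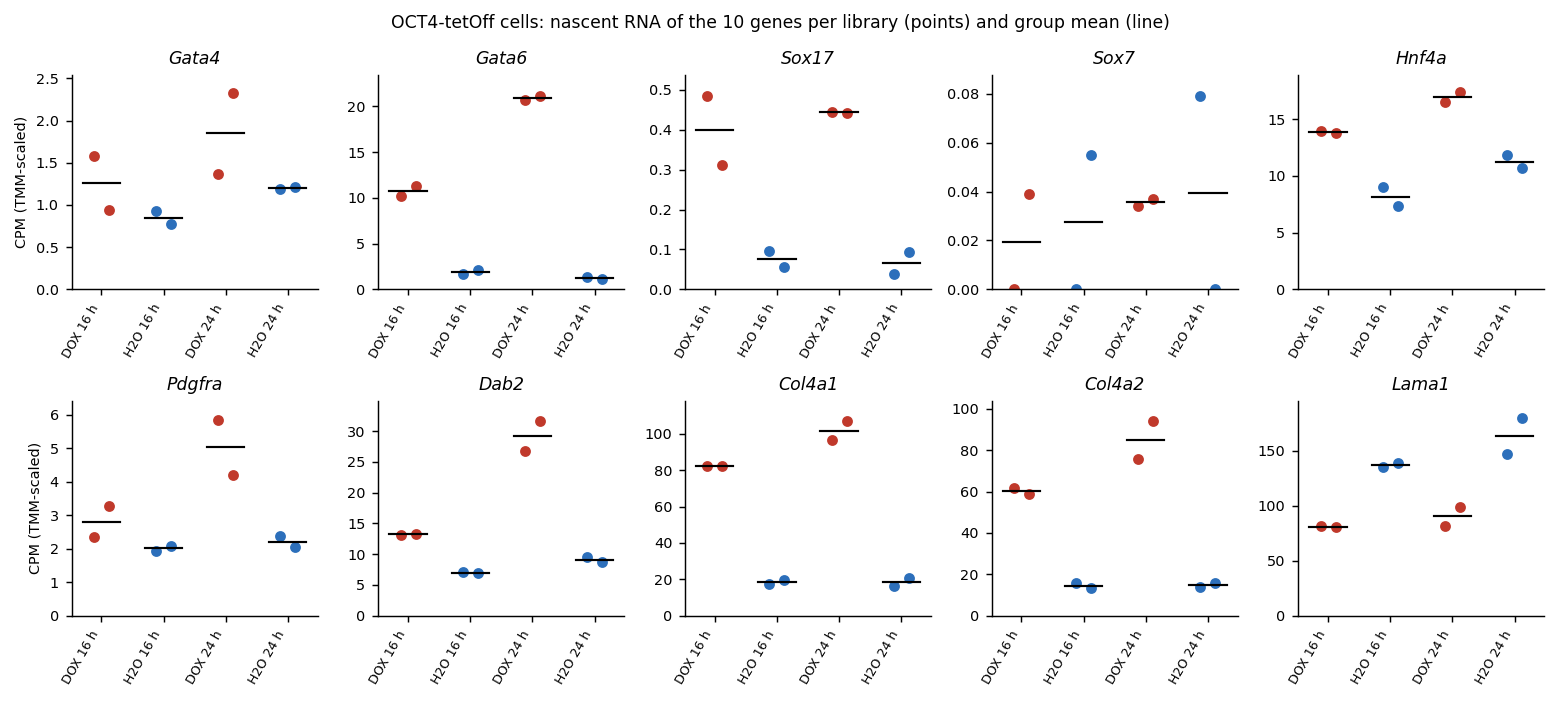
Nascent RNA of the 10 genes in OCT4-tetOff cells, in CPM after TMM scaling (y axis, from 0, 1 scale per gene), for DOX (red) and H2O (blue) cells at 16 and 24 h; points are libraries and lines are means of 2. Gata6 reached 20.7 and 21.1 CPM in DOX cells at 24 h, against 1.12 and 1.30 CPM in H2O cells, whereas Lama1 was lower in each DOX library than in any H2O library.

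Other cell type markers moved with DOX as well. The 7 trophectoderm markers summed to 118 to 144 CPM in DOX cells and 52.4 to 71.6 CPM in H2O cells, with none of the 7 at or under 3 counts throughout. Of 6 tested at 24 h, 3 were higher in DOX cells, where 36.9% of all genes were called (18.1% higher and 18.7% lower). The blood and endothelium markers summed to 23.8 to 43.8 CPM in DOX cells and 14.2 to 22.3 CPM in H2O cells, with Ptprc, Emcn, Hbb-bs and Hba-a1 at or under 3 counts in all 8 libraries. The fibroblast or feeder markers summed to 5.83 to 7.33 CPM in DOX cells and 3.4 to 4.34 CPM in H2O cells, with Fap, Postn, Dcn, Lum and Acta2 at or under 3 counts. The 7 definitive endoderm and mesendoderm markers summed to 18.5 to 31.9 CPM in DOX cells and 35.4 to 39.5 CPM in H2O cells, and 4 of 6 tested were lower at 24 h, while at 16 h Cdx1 was lower and Eomes, which is also on the trophectoderm list, was higher. At 24 h Thy1, the 1 called of 3 tested fibroblast markers, was higher in DOX cells (log2 0.93), as were Tek and Tie1 of 4 tested blood and endothelium markers. Cdh5 of that list was also called (log2 3.17 ± 0.81). In each 24 h H2O library 5 of the 8 listed were at or under 3 counts, against 4 in each 24 h DOX library. A call among them can thus rest on the DOX libraries alone. The part of cells with such markers in the result was not tested.

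Loss of FOXD3 gave changes in cycling cells that were called at 32 h and at no earlier time. There 5 of the 9 tested genes were higher in 4HT cells and none was lower. Of all 18707 genes, 4.88% were called higher, 4.59% lower and 9.47% in either direction. The median log2 fold change of the 9 was 0.58, beside -0.05 for all genes. The raw counts of the EtOH libraries of 32 h differed from each other by a chi-square of 115.8 per degree of freedom over genes, against 2.98 to 28.1 in the other cycling FOXD3-iKO groups. That chi-square includes Gm26917 and Gm42418, genes known to collect ribosomal RNA reads. They took 14.3% of the counts in replicate 1 and 28% in replicate 2 (13.9% and 12.5% in the 4HT libraries of 32 h). Their share of the chi-square was not tested. Without EtOH replicate 1 of 32 h 6 genes were called, and without EtOH replicate 2 of 32 h 3 were. At 24 h edgeR called none of the 9, where it called 0.481% of all genes; 4 had an unadjusted p under 0.05, and DESeq2 called 1, Lama1. Neither tool called any of the 9 at 14 h, where edgeR called 0.016% of all genes; 4 had an unadjusted p under 0.05, namely Hnf4a, Gata6 and Dab2 with higher and Sox17 with lower values in 4HT cells. Neither tool called any at 8 h, where edgeR called 0.0107% of all genes, and Gata4 alone had an unadjusted p under 0.05 (log2 0.33). The responses at 32 and 24 h were not shown to differ: the difference was 0.66 ± 0.20 for Gata6 and 0.67 ± 0.17 for Hnf4a (edgeR adjusted p = 0.5 and 0.4), with none of 9 and none of all genes (0%) called and 4 of 9 at an unadjusted p under 0.05.

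Gata6 had 7.73 and 8.75 CPM in 4HT cells at 32 h, against 3.79 and 4.00 CPM in EtOH cells. At 24 h it had 5.82 and 6.46 CPM in 4HT cells, against 4.51 and 4.69 CPM in EtOH cells. The 4HT libraries were above the EtOH libraries each time, and also at 8 and 14 h, where the gaps were small. The log2 fold change was 0.11 at 8 h, 0.28 at 14 h, 0.42 at 24 h and 1.08 ± 0.14 at 32 h, and the last, 2.12-fold, was called (edgeR adjusted p = 0.00038). The EtOH libraries were lower at 32 than at 24 h too, without passing the test (log2 -0.24, edgeR adjusted p = 0.36).

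Hnf4a had 15.6 and 18.5 CPM in 4HT cells at 32 h, against 8.13 and 8.17 CPM in EtOH cells. At 24 h it had 10.6 and 11.1 CPM in 4HT cells, against 7.77 and 8.65 CPM in EtOH cells. At 14 h it had 9.84 and 9.87 CPM in 4HT cells, against 6.47 and 6.90 CPM in EtOH cells. The groups did not overlap at these 3 times, and only the 32 h difference was called (log2 1.07 ± 0.12, edgeR adjusted p = 0.00012). Over all 16 libraries Hnf4aos held 451 counts, against 3773 for Hnf4a. The F test that the response was equal at the 4 times gave an edgeR adjusted p of 0.12 for Gata6 and 0.12 for Hnf4a. No member was called in it, where 0.454% of all genes were; 6 had an unadjusted p under 0.05 and DESeq2 called 3. Libraries of 8 and 14 h belong to another run of library numbers than those of 24 and 32 h, and the run and the time cannot be told apart.

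Gata4 and Sox17 were not called at 32 h. Gata4 had 5.15 and 5.44 CPM in 4HT cells at 32 h, against 5.49 and 5.69 CPM in EtOH cells, a difference of -0.08 in log2 (edgeR adjusted p = 0.8). In EtOH cells alone Gata4 was lower at 32 h, with 5.49 and 5.69 CPM, than at 24 h, with 7.29 and 8.31 CPM (log2 -0.49, edgeR adjusted p = 0.049, where 5.38% of all genes were called); it lost the call in 14 of the 16 fits that left out 1 library, with an adjusted p of up to 0.28. Sox17 had 10 to 11 counts in 4HT libraries and 10 to 13 counts in EtOH libraries at 32 h. Its groups nearly met, and its log2 fold change was -0.30 ± 0.38 (edgeR adjusted p = 0.73). Sox7 had 0 to 4 counts in every cycling FOXD3-iKO library.

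Pdgfra had 3.41 and 3.72 CPM in 4HT cells at 32 h, against 2.05 and 2.25 CPM in EtOH cells. The groups were apart, and the call was marginal (log2 0.73 ± 0.21, edgeR adjusted p = 0.045). It was lost in 13 of the 16 fits that left out 1 library, with adjusted p of up to 0.23, and under DESeq2 (adjusted p = 0.055). Dab2 had 22.1 and 22.4 CPM in 4HT cells at 32 h, against 11.96 and 15.8 CPM in EtOH cells. All 4HT libraries were higher, and the log2 fold change was 0.68 ± 0.14 (edgeR adjusted p = 0.0088). Without EtOH replicate 2, 4HT replicate 1 or 4HT replicate 2 of 32 h, the edgeR adjusted p of Dab2 was 0.052, 0.062 and 0.059, and 3 rather than 5 of the genes were then called. A fit of the 4 libraries of 32 h alone called 2, Gata6 and Hnf4a, and gave adjusted p of 0.14 for Pdgfra, 0.10 for Dab2 and 0.12 for Lama1.

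Of the matrix genes, only Lama1 was called at 32 h. It had 128.3 and 129.9 CPM in 4HT cells, against 78.8 and 93.5 CPM in EtOH cells, and at 24 h it had 102.0 and 102.3 CPM in 4HT cells, against 73.6 and 76.6 CPM in EtOH cells. Its 4HT libraries were higher at both times, by log2 0.58 ± 0.09 at 32 h (edgeR adjusted p = 0.0018) and 0.44 ± 0.09 at 24 h, which missed the threshold (edgeR adjusted p = 0.063) and passed it without 4HT replicate 1 of 14 h, EtOH replicate 1 of 32 h or EtOH replicate 2 of 32 h (adjusted p = 0.034, 0.0082 and 0.0083). Col4a1 had 37.3 and 39.5 CPM in 4HT cells at 32 h, against 30.6 and 33.7 CPM in EtOH cells. It did not pass the test (log2 0.26, edgeR adjusted p = 0.11), though it did without EtOH replicate 1 of 32 h (0.33, adjusted p = 0.04). Col4a2 had 23.8 and 24.0 CPM in 4HT cells, against 20.7 and 23.5 CPM in EtOH cells, a difference of 0.12 in log2 (edgeR adjusted p = 0.55).

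**Figure D2:**
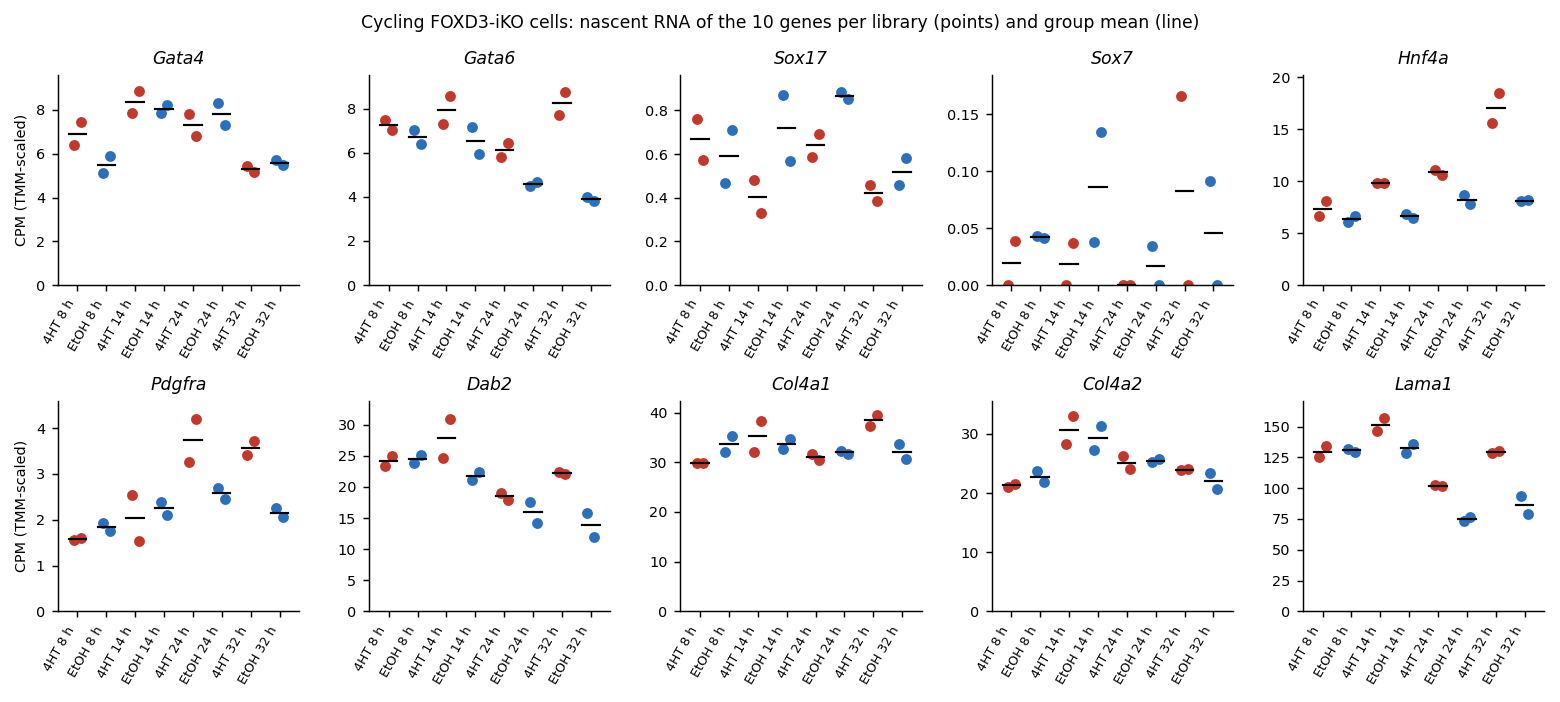
Nascent RNA of the 10 genes in cycling FOXD3-iKO cells, in CPM after TMM scaling (y axis, from 0, 1 scale per gene), for 4HT (red) and EtOH (blue) cells at 8, 14, 24 and 32 h; points are libraries and lines are means of 2. The Gata6 and Hnf4a groups stand furthest apart at 32 h, where Hnf4a had 15.6 and 18.5 CPM in 4HT cells, against 8.13 and 8.17 CPM in EtOH cells.

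The trophectoderm markers summed to 70.2 to 88.1 CPM in cycling 4HT cells and 46.4 to 68.8 CPM in EtOH cells. Of 6 tested at 32 h, 2 were higher in 4HT cells, where 9.47% of all genes were called (4.88% higher and 4.59% lower). The stem cell markers summed to 2472 to 3239 CPM in 4HT cells and 2519 to 3090 CPM in EtOH cells over all times. At 32 h they summed to 2725 and 2672 CPM in 4HT cells, against 2848 and 3090 CPM in EtOH cells. None of 7 tested was called at 32 h, and their median log2 fold change was -0.19, beside -0.05 for all genes. At 32 h the blood and endothelium markers summed to 34.0 and 38.1 CPM in 4HT cells, against 26.8 and 16.7 CPM in EtOH cells, and Tek, 1 of 2 tested, was higher (log2 0.76, edgeR adjusted p = 0.029). The fibroblast or feeder markers summed to 2.04 and 1.70 CPM in 4HT cells at 32 h, against 2.62 and 3.61 CPM in EtOH cells, and Thy1, 1 of 3 tested, was lower (log2 -1.21, edgeR adjusted p = 0.0097). The groups did not overlap at 32 h for the stem cell, the blood and endothelium and the fibroblast or feeder sums. The definitive endoderm and mesendoderm sums overlapped (15.8 to 17.3 CPM in 4HT cells, 16.3 to 19.9 CPM in EtOH cells), with none of 6 called. The part of such cells in the result was not tested. Longer genes tended to higher fold changes at 32 h (Spearman's rho of length and log2 fold change over all tested genes 0.298), as they did after OCT4 loss at 24 h (0.308). With that trend removed, 4 of the 5 genes were still called at 32 h, and Pdgfra was not (edgeR adjusted p = 0.052).

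The responses to loss of FOXD3 and of OCT4 at 24 h were compared in 1 joint fit, as the log2 response to 4HT minus the log2 response to DOX. Sox17 had 1 and 2 counts in the H2O libraries and is left out of this count. Of the other 8 tested genes 5 were called, 1 with a positive and 4 with a negative difference. Of all 18437 genes 16.5% were called (9.08% with a positive and 7.4% with a negative difference). Gata6 differed by -3.67 ± 0.21, Col4a2 by -2.53 ± 0.18, Col4a1 by -2.50 ± 0.18 and Dab2 by -1.46 ± 0.19 (edgeR adjusted p = 9.4e-06, 2.1e-05, 2.1e-05 and 0.00072). Each of these 4 responded more strongly to OCT4 loss. Lama1 differed by 1.30 ± 0.19 (edgeR adjusted p = 0.0013), since it was higher in 4HT than in EtOH cells and lower in DOX than in H2O cells. Hnf4a (-0.18 ± 0.17, edgeR adjusted p = 0.49), Pdgfra (-0.64 ± 0.31, 0.19) and Gata4 (-0.71 ± 0.34, 0.18) did not pass the test. Without DOX replicate 1 the Gata4 difference was -1.05. Foxd3 itself fell in DOX cells, by log2 -3.12 at 24 h, against -1.46 in 4HT cells at 24 h (difference 1.67, edgeR adjusted p = 0.0019), so the DOX cells had low Foxd3 as well as low Pou5f1. The lines also differ in their starting levels of these genes and in the agent, which cannot be told apart.

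**Figure D3:**
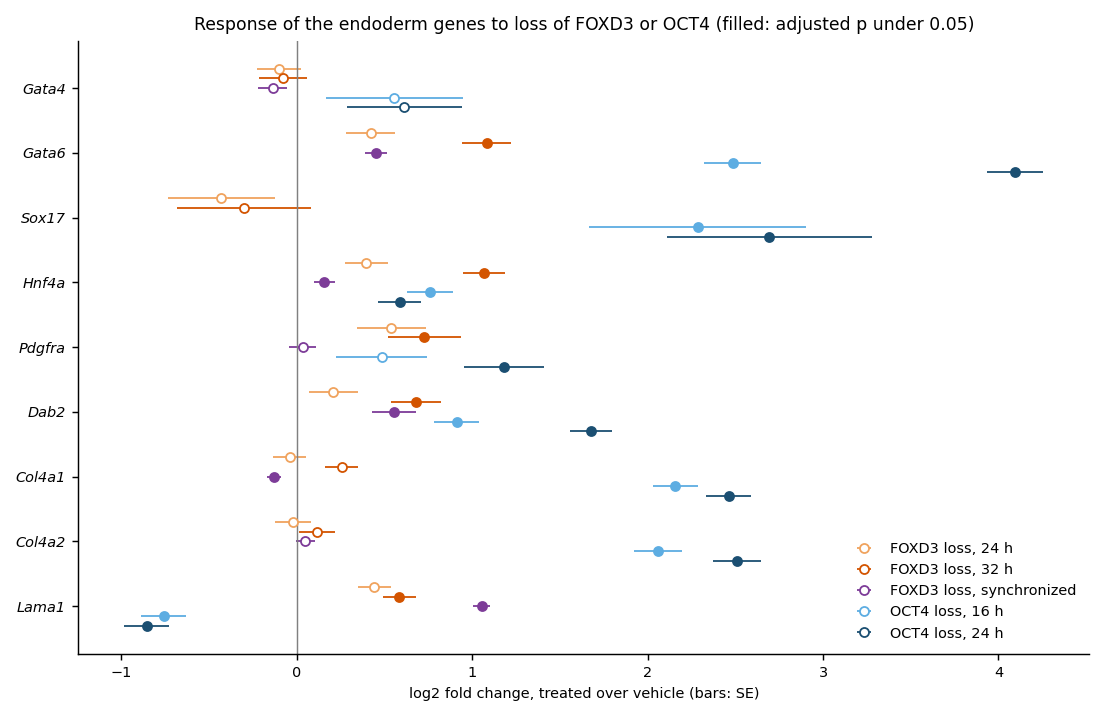
Log2 fold change of treated over solvent-treated cells (x axis, bars are SE) for the 9 genes with a testable level, for FOXD3 loss at 24 h, at 32 h and in synchronized cells and for OCT4 loss at 16 and 24 h; filled points passed an edgeR adjusted p of 0.05, and Sox17 passed the low-count filter after DOX only through its DOX libraries. Gata6 reaches 4.10 after 24 h of DOX and 1.08 after 32 h of 4HT, and Lama1 lies left of 0 after DOX and right of 0 after 4HT.

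In synchronized FOXD3-iKO cells Lama1 gave the clearest separation. Over the 12 4HT libraries it had a lowest value of 116 CPM, a median of 130 CPM and a highest of 159 CPM, against 55.8, 63.4 and 76.1 CPM in the 12 EtOH libraries. No 4HT library came near an EtOH library. All EtOH libraries of synchronized cells have lower library numbers than all 4HT libraries of these cells. In every comparison of these arms, the treatment and the order of library numbers therefore cannot be told apart. The 4HT effect over the 6 release times, with release time in the fit, came to 1.05 ± 0.05 in log2 (edgeR adjusted p = 1.7e-11), or 2.08-fold, and the ratio of group means was 1.79 at 0 h and 2.37 at 5 h. In all, 5 of 8 tested genes were called, 4 higher and 1 lower, where 37% of all 17739 genes were called (18.6% higher and 18.4% lower). In raw counts, with Gm26917 and Gm42418 included, the EtOH libraries of 3 and 5 h differed most between replicates (chi-square per degree of freedom 211.3 and 159.5). Those 2 genes took 25.4% and 4.77% of the counts in replicates 1 and 2 at 3 h, and 24.4% and 3.83% at 5 h. Without any 1 of the 24 libraries 4 or 5 genes were called. Sox17 (0 to 10 counts a library) and Sox7 (0 to 10 counts) were too low to test.

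Gata6 spanned 10.1 to 19.6 CPM with a median of 15.5 CPM in 4HT cells, against 7.87 to 16.7 CPM with a median of 10.3 CPM in EtOH cells. The arms overlapped, both were highest at 0 h, and the 4HT mean was above the EtOH mean at each of the 6 times, by a ratio of 1.14 at 0 h and 1.6 at 5 h. The log2 fold change was 0.45 ± 0.06 (edgeR adjusted p = 1.4e-05). Dab2 spanned 46.5 to 103 CPM with a median of 75.2 CPM in 4HT cells, against 26.5 to 68.6 CPM with a median of 51.9 CPM in EtOH cells. Its 4HT mean was below the EtOH mean at 0 h (ratio 0.856) and above it at the 5 later times (1.34 to 1.91), with a log2 fold change over all times of 0.56 ± 0.12 (edgeR adjusted p = 0.0016).

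Hnf4a spanned 30.2 to 44.8 CPM in 4HT cells, against 29.2 to 37.6 CPM in EtOH cells, and its small difference was marginal (log2 0.16 ± 0.06, edgeR adjusted p = 0.044). It was lost in 15 of the 24 fits that left out 1 library, with adjusted p of up to 0.091, and it was -0.05 when libraries were scaled by total counts alone. The mean of the 6 contrasts from a fit with 1 mean per group called 4 genes, with Hnf4a at an edgeR adjusted p of 0.053. Col4a1 was the gene called lower, with 48.1 to 76.4 CPM in 4HT cells, against 54.8 to 83.9 CPM in EtOH cells (log2 -0.13 ± 0.04, edgeR adjusted p = 0.012); the call was lost with no filter on low counts (adjusted p = 0.15). Col4a2 (0.05, edgeR adjusted p = 0.49), Pdgfra (0.03, 0.75) and Gata4 (-0.14, 0.21) were not called. Gata4 was called lower under 3 of 8 other settings, at -0.35 with total counts alone, -0.30 with Gm26917 and Gm42418 left out of the total and -0.30 with the length trend removed (edgeR adjusted p = 0.0069, 0.012 and 0.015). Longer genes again tended to higher fold changes (rho 0.465 over all tested genes). With that trend removed, Lama1, Gata6 and Dab2 were still called, and Hnf4a was not (log2 0.02, edgeR adjusted p = 0.89).

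Several of these genes differed between times after release from the block. Later times after release were also longer times after 4HT or EtOH, and these cannot be told apart. Gata6 averaged 18.4 CPM at 0 h and 11.3 CPM at 1 h in 4HT cells, and 16.2 CPM at 0 h and 8.13 CPM at 1 h in EtOH cells. Col4a2 averaged 55.0 CPM at 0 h and 36.1 CPM at 1 h in 4HT cells, and 51.2 CPM at 0 h and 34.6 CPM at 1 h in EtOH cells. Both means were lower at 1 h than at 0 h in each arm, and the means of Col4a1 and Pdgfra were also highest at 0 h in both arms. The F test over the 6 release times called 6 of 8 genes in 4HT cells, where 15.4% of all genes were called, and 4 of 8 in EtOH cells, where 19.4% were. Gata6, Col4a1, Col4a2 and Pdgfra passed in both arms (edgeR adjusted p from 0.0028 to 0.0084 in 4HT cells and from 0.00067 to 0.011 in EtOH cells), and Gata4 and Lama1 passed in 4HT cells (0.037 and 0.024). The counts rest on the 0 h libraries. Without 4HT replicate 1 or 2 of 0 h, 2 genes were called in 4HT cells, and without EtOH replicate 1 or 2 of 0 h, 1 and 2 were called in EtOH cells. A difference of the 4HT effect between release times was called for none of the 8 genes, by edgeR or DESeq2, and for none of all genes (0%); none of the 8 had an unadjusted p under 0.05, with 0.053 for Gata6 and 0.069 for Dab2.

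**Figure D4:**
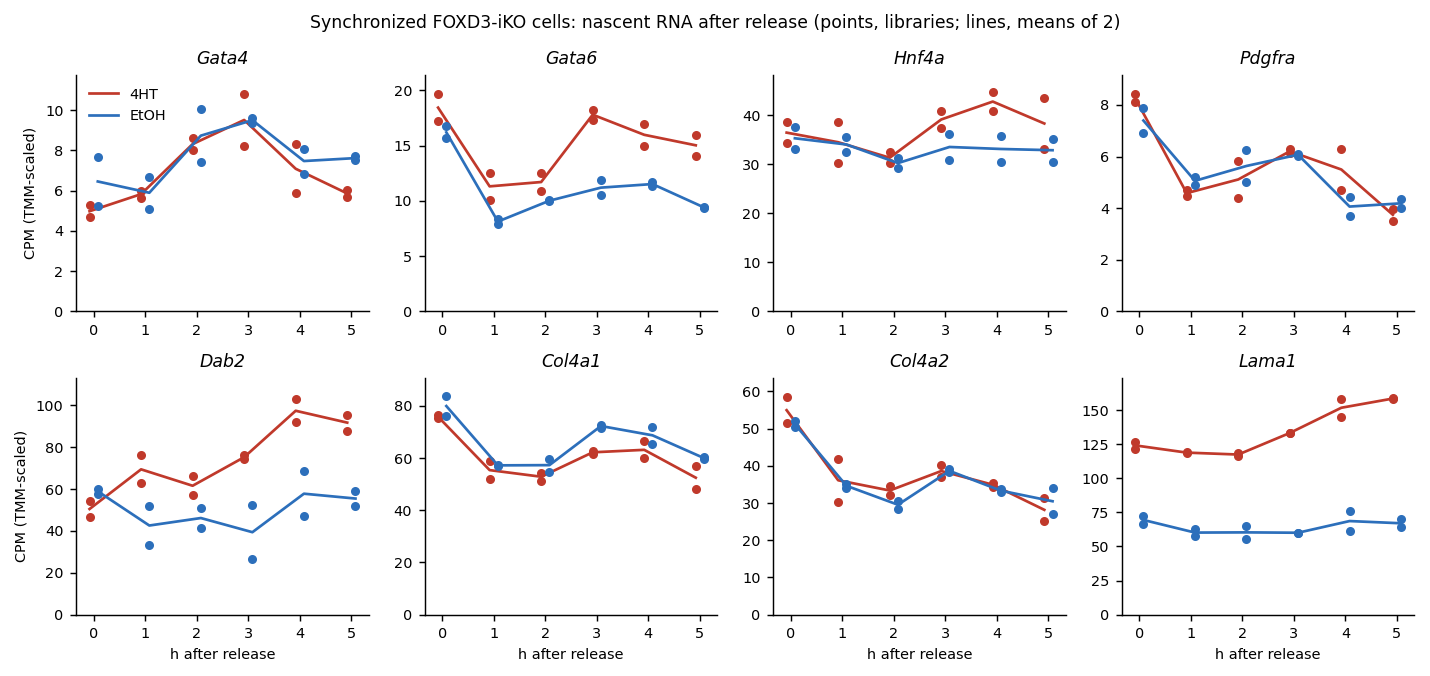
Nascent RNA of the 8 testable genes in synchronized FOXD3-iKO cells, in CPM after TMM scaling (y axis, from 0, 1 scale per gene), against h after release from the thymidine block (x axis), for 4HT (red) and EtOH (blue) cells; points are libraries and lines join means of 2. Lama1 in 4HT cells stays at or above 116 CPM and in EtOH cells at or below 76.1 CPM, and Gata6, Col4a1, Col4a2 and Pdgfra are highest at 0 h in both arms.

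The trophectoderm markers summed to 46.4 to 75.6 CPM in synchronized 4HT cells and 28.4 to 50.9 CPM in EtOH cells, the stem cell markers to 3271 to 4025 CPM in 4HT cells and 2921 to 3533 CPM in EtOH cells, and the blood and endothelium markers to 51.8 to 76.3 CPM in 4HT cells and 24.7 to 103 CPM in EtOH cells. The fibroblast or feeder markers (1.29 to 3.94 CPM in 4HT cells, 1.19 to 3.42 CPM in EtOH cells) and the definitive endoderm and mesendoderm markers (12.7 to 23.9 CPM in 4HT cells, 13.2 to 26.7 CPM in EtOH cells) overlapped as sums over all release times. With release time in the fit, Tfap2c (log2 1.22) and Gata3 (0.38) of 5 tested trophectoderm markers and Tfcp2l1, Tbx3 and Esrrb of 7 tested stem cell markers (0.22, 0.19 and 0.12) were higher in 4HT cells. Thy1 (-0.74) of 2 tested fibroblast or feeder markers and Cdx1 (-0.30) and T (-0.83) of 5 tested definitive endoderm and mesendoderm markers were lower (edgeR adjusted p at most 0.042 throughout). Of all genes 37% were called (18.6% higher and 18.4% lower). The part of cells with these markers in the result was not tested.

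Col4a1 and Col4a2 lie head to head on chromosome 8 (mm10), a known arrangement of this gene pair, Col4a1 on the minus strand at chr8:11198423-11312826 and Col4a2 on the plus strand at chr8:11312805-11449287. Their intervals share 22 bases at chr8:11312805-11312826. The shared stretch is shown because both genes begin in it; it is given on the plus strand from RefSeq (GRCm38.p6).
Col4a1 and Col4a2 shared stretch: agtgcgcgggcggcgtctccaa
The 522 bases that reach 250 bases upstream of either gene were 73.9% G or C and held none of the motifs searched below. The 2 genes were the most alike of all. Over the 24 group means of log2 CPM, centred within each table, Pearson's r of Col4a1 and Col4a2 was 0.954, the highest of 12781 candidate genes for either one, where groups of 1 table share their scaling and solvent cells. The per-kb ratio of Col4a1 to Col4a2 was 1.36 to 1.66 in DOX cells and 1.31 to 1.77 in H2O cells, although the genes were 4.17- to 5.70-fold higher in DOX cells. It was 1.36 to 1.96 in cycling 4HT cells and 1.31 to 1.93 in EtOH cells, and 1.56 to 2.31 in synchronized 4HT cells and 1.80 to 2.64 in synchronized EtOH cells. Over each table the ratio overlapped between arms. Within release times it was lower on the mean in synchronized 4HT cells at each of the 6 times, without overlap at 0, 2, 3 and 4 h (at 3 h 1.87 and 1.99 in 4HT cells, against 2.23 and 2.24 in EtOH cells); this difference was not tested.

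**Figure D5:**
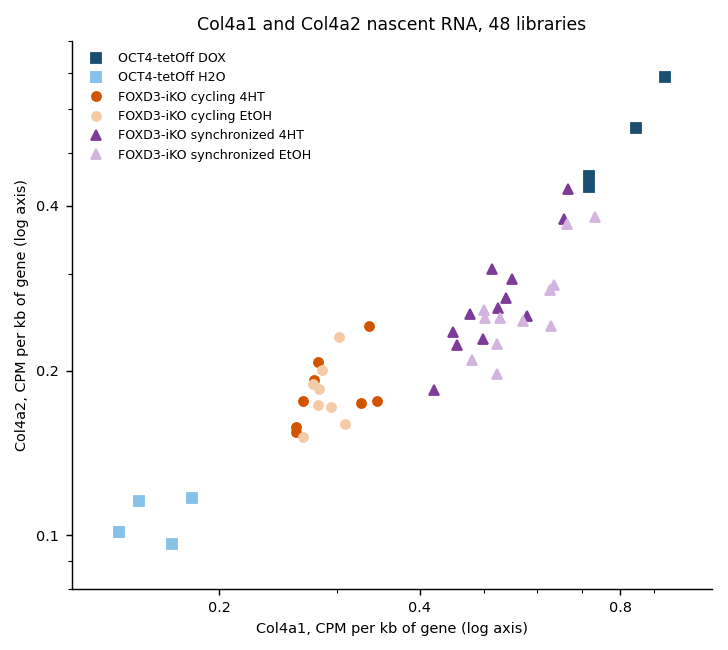
Nascent RNA of Col4a1 (x axis) and Col4a2 (y axis) in CPM per kb of gene, both on log axes, for the 48 libraries; colours and shapes mark the line, treatment and cycling or synchronized state. DOX libraries lie at the upper right and H2O libraries at the lower left, and the 2 genes move together with a per-kb ratio between 1.31 and 2.64.

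Other members paired with different genes. Gata6 was most like Peg10, an imprinted gene (r = 0.944 over the same 24 group means), and Atp2b4, a calcium pump gene (0.914), and its r with Col4a1 was 0.90, the 7th highest. Dab2 was most like Bmper (0.876) and Sox6 (0.874), and its r with Gata6 was 0.769. Pdgfra was most like Anpep (0.921) and Ttll7 (0.856), Hnf4a like Arhgef28 (0.865) and Cdk15 (0.864), Gata4 like Slc25a24 (0.851) and Micall1 (0.831), and Lama1 like Mgll (0.882) and Ulk1 (0.86). Lama1 had an r of -0.016 with Gata6, -0.38 with Col4a1 and -0.27 with Col4a2, so the laminin gene did not vary with the collagen genes across these groups. These r are descriptions of 24 points that share tables and solvent groups.

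Upstream sequence was on hand in RefSeq (GRCm38.p6) for 5 of the 10 genes and 7 start sites, as the 250 bases before each start. The motifs searched on both strands were GATAA, bound by GATA factors, GTAAACA, bound by many forkhead factors, and ATGCAAAT, the octamer bound by OCT4. Of all 32851 such windows 22.6% held GATAA, 3.2% held GTAAACA and 1.6% held ATGCAAAT. GATAA was found once before Dab2, 178 bases before the first RefSeq start, and once before Hnf4a, 51 bases before the first RefSeq start. The Hnf4a match begins at chr2:163506806, and the interval counted for Hnf4a begins within it, at chr2:163506808. GATAA was not found at the second starts of Dab2 and Hnf4a or before Pdgfra, Col4a1 and Col4a2, and the other motifs were found in none of the 7. The matches are shown with the motif in capitals, for Dab2 (chr15:6299539-6299787, plus strand) and, as the bases around the motif only, for Hnf4a (chr2:163506796-163506820, plus strand).
Dab2: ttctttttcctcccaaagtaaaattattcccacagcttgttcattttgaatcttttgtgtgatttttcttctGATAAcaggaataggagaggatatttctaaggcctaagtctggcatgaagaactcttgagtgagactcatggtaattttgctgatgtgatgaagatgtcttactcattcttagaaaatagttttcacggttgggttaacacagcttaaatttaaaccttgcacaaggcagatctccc
Hnf4a: gaatcaataaGATAAccgggcgggg
A match is a description of the letters in this window. The remaining genes lie on chromosome 1 (Sox17), 5 (Pdgfra), 14 (Gata4 and Sox7), 17 (Lama1) and 18 (Gata6), and their intervals run from 6424 bases (Sox17) and 7060 bases (Sox7) to 140925 bases (Dab2).

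For genes that work with the members, counts stand beside the 36.9% of all genes called at 24 h of DOX, 9.47% at 32 h of 4HT and 37% in synchronized cells. All 5 tested genes of the PDGF ligands and the second receptor passed the test after 24 h of DOX, 3 higher and 2 lower. Pdgfa, the main ligand of PDGFRA, fell by 2.17 on the log2 scale and Pdgfc fell by 2.91, while Pdgfd rose by 2.41 and Pdgfrb by 0.83 (edgeR adjusted p at most 0.00023). None of the 5 passed at 32 h of 4HT. Of the 16 tested genes of FGF input, 2 rose and 6 fell after 24 h of DOX (18.1% of all genes rose and 18.7% fell), among them Fgf4, the main FGF of the epiblast, which fell by 1.71, and Dusp6, a phosphatase that ERK signalling induces, which fell by 1.81. At 32 h of 4HT 1 of 17 passed, Fgf4, which fell by 0.51 (edgeR adjusted p = 0.025). In synchronized cells 8 of 16 rose and 2 fell with 4HT (18.6% of all genes rose and 18.4% fell): Frs2 and Map2k1, which carry FGF signals in the cell, rose by 0.35 and 0.42, Dusp6 fell by 0.61 and Fgf4 fell by 0.41 (edgeR adjusted p at most 0.00018).

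Of 19 tested basement membrane partners and collagen folding genes, 6 rose and 1 fell after 24 h of DOX, a share close to the 36.9% of all genes. Lamb1, the laminin beta 1 chain that joins with alpha 1, rose by 1.49 where Lama1 fell, Serpinh1, the collagen chaperone HSP47, rose by 1.25, Pxdn, which crosslinks collagen IV, rose by 1.62, and the nidogen gene Nid2 fell by 1.40 (edgeR adjusted p at most 0.00013). At 32 h of 4HT 1 of 18 passed, Nid1, which was lower than in EtOH cells by 0.32 (edgeR adjusted p = 0.044). EtOH cells alone had more Nid1 at 32 than at 24 h (log2 0.53, edgeR adjusted p = 0.0076). In synchronized cells 6 of 18 rose and 2 fell with 4HT, where 37% of all genes were called, among them Lamb1, which fell by 0.22 where Lama1 rose.

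Of 12 tested other endoderm regulators, 1 rose and 3 fell after 24 h of DOX, again close to the share of all genes. Ihh, a hedgehog ligand made by visceral endoderm, rose by 2.80, while Otx2 fell by 2.26, Nodal fell by 1.04 and Lefty1 fell by 2.66 (edgeR adjusted p at most 0.0047). At 32 h of 4HT 1 of 11 passed, Lefty1, which was lower than in EtOH cells by 1.32 (edgeR adjusted p = 0.0012). EtOH cells alone had more Lefty1 at 32 than at 24 h (log2 0.82, edgeR adjusted p = 0.03). Of 6 tested visceral endoderm genes of a list of 14, Lrp2, an endocytic receptor that DAB2 serves, rose by 1.87 and Apoe fell by 0.84 after 24 h of DOX, and Apob, an apolipoprotein, rose by 1.22 at 32 h of 4HT (edgeR adjusted p at most 0.001). Of 6 tested parietal endoderm genes, Pth1r and Snai1 rose by 1.96 and 0.82 and Fst fell by 6.23 after 24 h of DOX. At 32 h of 4HT Vim was lower than in EtOH cells by 0.73 and Fst by 0.69 (edgeR adjusted p at most 0.036 throughout). From 24 to 32 h, EtOH cells alone had Vim higher by 0.74 and Fst lower by 0.79 (edgeR adjusted p = 0.022 and 0.017). The median log2 fold changes of the other endoderm regulators, the visceral list and the parietal list were -0.09, 0.11 and 0.69 after 24 h of DOX, beside -0.01 for all genes, and -0.30, 0.47 and -0.35 at 32 h of 4HT, beside -0.05 for all genes.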

How the data were processed

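Per the labels' protocols, Trizol LS served for the extraction of 4SU-labelled RNA and KAPA RNA HyperPrep for the libraries. The authors deposited raw counts per gene in 3 tables. Per the submitters' processing notes, STAR, featureCounts and mm10 were used; no source used here gives versions or the strand setting. Each gene has 1 interval from start to end, so introns count. Gene identifiers were matched to symbols for 54723 of 54752 genes.

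From the deposited counts, edgeR 4.0.16 (R 4.3.3) fitted 1 mean per group with TMM factors in each table, after filterByExpr with a minimum count of 10, and tested contrasts by quasi-likelihood (the synchronized 4HT effect in a fit with release time and treatment as terms), with Benjamini-Hochberg adjustment over all genes and a threshold of 0.05. SE is the size of the log2 fold change over the square root of F. The 24 h libraries of both lines were fitted jointly. Alternatives were DESeq2 1.42.0, other scalings, a length trend removed, no filter, a replicate block, only the groups compared, and 1 library left out. The filter kept 9, 9 and 8 of the 10 genes in the FOXD3-iKO, OCT4-tetOff and synchronized tables. The fits were tested on simulated data. The genes and lists were chosen with earlier results of these data known. Named from each list were the called genes, at most the 4 of smallest p in a contrast, and of genes of like pattern the 2 of highest r. Gm26917 and Gm42418, genes known to collect ribosomal RNA reads, took 12.5% to 37.1%, 18.1% to 43% and 3.41% to 25.4% of the counts in the 3 tables. Intervals and floors cover counting error only.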

Additional observations from a re-analysis of the deposited data

Results flagged for a closer look

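The log2 response to 4HT minus the log2 response to DOX at 24 h passed the test of the difference itself for 5 genes other than Sox17. The differences were -3.67 for Gata6, -1.46 for Dab2, -2.50 for Col4a1, -2.53 for Col4a2 and 1.30 for Lama1 (edgeR adjusted p = 9.4e-06, 0.00072, 2.1e-05, 2.1e-05 and 0.0013). The Sox17 value (-3.12) rests on 1 and 2 counts in the H2O libraries and is given without a test.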

How the results depend on the processing

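With Sox17 counted, the numbers of genes called after OCT4 loss (7 at 16 h, 8 at 24 h), in the joint fit (6) and between the solvent-treated lines (8) were within 1.5 times of these under each alternative run. Sox17 passed the filter only through the groups where it is high, and without it the numbers in the main fits were 6, 7, 5 and 7. For FOXD3 loss at 32 h the number was 5, against 2 when only the compared groups were fitted, 4 with DESeq2 and 6 with total counts alone. At 24 h it was 0, against 1 with counts outside Gm26917 and Gm42418, with the length trend removed, with DESeq2, with no filter and with only the groups compared; this gene was Lama1 each time. For the response over times it was 0, against 3 with DESeq2, 2 with total counts alone, 2 with no filter, and 1 after removal of the length trend or with Gm26917 and Gm42418 left out of the total. For EtOH cells at 32 against 24 h it was 1, against 3 with the length trend removed and 0 with total counts alone, DESeq2 and only the groups compared. For the OCT4 response at 24 against 16 h it was 0, against 2 with no filter and 1 with DESeq2, with total counts alone and with the length trend removed. In synchronized cells it was 5, against 3 with no filter, for which 1 gene rather than 0 was called in the test of release times; 6 genes called over release in 4HT cells became 3 with total counts alone, and 4 in EtOH cells became 2 with the length trend removed. The cause was not tested.

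Total counts alone moved the median of all genes by -0.21 in synchronized cells, 0.12 at 32 h and 0.15 at 16 h of DOX. Signs turned for values not called: at 24 h of 4HT, Col4a1 to 0.0044, 0.0012 and 0.029 and Col4a2 to 0.023, 0.019 and 0.056 with total counts alone, with Gm26917 and Gm42418 left out of the total and after removal of the length trend; at 32 h, Gata4 to 0.091 with total counts alone; in the joint fit, Hnf4a to 0.018 with the length trend removed; in synchronized cells, with the same 3 alternatives, Pdgfra to -0.18, -0.13 and -0.046 and Col4a2 to -0.15, -0.11 and -0.17. The called Hnf4a value in synchronized cells turned to -0.046 with total counts alone and -0.0029 with counts outside Gm26917 and Gm42418.

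With 1 library left out the number called ranged over 3 to 6 at 32 h (3 without EtOH replicate 2 or either 4HT replicate of 32 h), 0 to 1 at 24 h, 0 to 2 for the response over times (2 without EtOH replicate 1 of 32 h), 0 to 1 for EtOH cells at 32 against 24 h, 0 to 2 for the OCT4 response at 24 against 16 h (2 without DOX replicate 1 of 24 h), 2 to 7 over release in 4HT cells and 1 to 5 in EtOH cells. Gata4 at 24 h ranged over -0.18 to 0.012, Col4a2 at 24 h over -0.057 to 0.048 and Pdgfra in synchronized cells over -0.011 to 0.068.

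Replicate numbers were not taken as pairs, since the labels name no shared batch and the correlation of same-numbered deviations ran from -0.23 to 0.62 over 12 pairs of groups. With the number as a replicate block 4 genes were called at 32 h, 0 in EtOH cells at 32 against 24 h, 8 over release in 4HT cells and 5 in EtOH cells, and the other numbers did not change.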
